A study of Rattus norvegicus with 8 samples.

Results

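Antiviral interferon-stimulated genes were examined in the skin of streptozotocin-treated rats. They are 9 genes, taken by name (Irf7, Isg15, Ifit2, Ifit3, Mx1, Mx2, Oas1a, Rsad2 and Usp18), of 13903 genes named on the array. Each was found through its RefSeq accession and had 1 probe, and all 9 were well above background in all 8 files.

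Type I interferons are secreted proteins that cells release on sensing viral or misplaced nucleic acid. They bind a receptor of paired chains, which activates Janus kinases, and a factor that contains Irf9 then binds the interferon-stimulated response element of target genes. The targets code for proteins that block virus entry, translation, replication and budding, and in skin the pathway is active in keratinocytes, fibroblasts and immune cells. Interferon gamma, made mainly by T and NK cells, uses a separate receptor and drives a partly overlapping set of genes.

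The samples were full-thickness skin of male Sprague-Dawley (SD) rats. The STZ group received 60 mg/kg streptozotocin, a toxin of pancreatic beta cells, by intraperitoneal injection at 4 weeks of age. The sham group received the sodium citrate solution. Skin was taken 4 weeks after treatment, when rats of both groups were 8 weeks old. The labels name 4 samples in each group, but replicates 1 and 3, and replicates 2 and 4, of each group were rescans of 1 array. They were averaged, which left 2 arrays per group: array 1 (replicates 1 and 3) and array 2 (replicates 2 and 4). A treatment protocol also mentions a cutaneous wound, and the sources used here do not say whether the profiled skin had one, what the rats' blood glucose was, or how many rats an array stands for. The p-values therefore measure the spread between these arrays, which may be technical.

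The 75th percentile of the processed intensities was 1481 and 1496 in the 2 scans of STZ array 1, and 606 and 624 in those of STZ array 2, against 1138 to 1336 in the sham files. Per file, 20262 to 22887 of 24684 probes passed the scanner's background test. The STZ arrays lay at positions 1 and 2 of the single slide and the sham arrays at positions 3 and 4, so position and group cannot be told apart. All 6 keratinocyte and all 8 fibroblast markers on the array, among them Krt14, Krt1, Dcn and Col3a1, were well above background in every file.

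Promoters of 5 of the 9 genes were available from RefSeq (build GRCr8), as 250 bases before to 50 bases after the gene start. They are shown because the response element is the sequence these genes are known to share. Capitals mark each match to GAAANNGAAA, the core of the element, or to TTTCNNTTTC, the same letters on the other strand. The windows are chr1:205799974-205800273 (minus strand) for Irf7, chr1:241527076-241527375 (plus) for Ifit3, chr12:41330216-41330515 (plus) for Oas1a, chr6:48788071-48788370 (minus) for Rsad2 and chr11:50294557-50294856 (minus) for Mx1.
Irf7: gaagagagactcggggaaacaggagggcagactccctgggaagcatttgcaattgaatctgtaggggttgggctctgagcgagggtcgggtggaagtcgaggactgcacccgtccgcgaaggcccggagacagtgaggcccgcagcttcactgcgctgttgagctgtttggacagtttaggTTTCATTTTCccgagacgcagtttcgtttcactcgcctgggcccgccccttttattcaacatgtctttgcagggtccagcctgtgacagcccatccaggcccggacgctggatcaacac
Ifit3: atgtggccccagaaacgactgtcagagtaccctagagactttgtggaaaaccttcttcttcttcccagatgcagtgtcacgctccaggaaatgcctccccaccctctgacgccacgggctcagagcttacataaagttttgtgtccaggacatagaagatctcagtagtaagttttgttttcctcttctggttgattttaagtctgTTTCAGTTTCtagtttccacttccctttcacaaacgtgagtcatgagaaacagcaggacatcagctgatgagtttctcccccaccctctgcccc
Oas1a: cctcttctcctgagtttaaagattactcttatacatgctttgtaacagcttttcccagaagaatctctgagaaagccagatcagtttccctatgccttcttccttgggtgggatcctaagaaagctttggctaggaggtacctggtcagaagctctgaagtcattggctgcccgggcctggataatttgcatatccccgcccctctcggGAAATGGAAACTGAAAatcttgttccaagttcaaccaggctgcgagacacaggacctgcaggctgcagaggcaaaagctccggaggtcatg
Rsad2: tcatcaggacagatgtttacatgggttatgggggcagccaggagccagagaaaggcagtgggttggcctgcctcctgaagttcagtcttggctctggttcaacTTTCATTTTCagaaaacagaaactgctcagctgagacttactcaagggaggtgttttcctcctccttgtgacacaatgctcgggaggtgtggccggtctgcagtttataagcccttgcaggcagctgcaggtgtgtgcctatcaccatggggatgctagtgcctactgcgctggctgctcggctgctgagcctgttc
Mx1: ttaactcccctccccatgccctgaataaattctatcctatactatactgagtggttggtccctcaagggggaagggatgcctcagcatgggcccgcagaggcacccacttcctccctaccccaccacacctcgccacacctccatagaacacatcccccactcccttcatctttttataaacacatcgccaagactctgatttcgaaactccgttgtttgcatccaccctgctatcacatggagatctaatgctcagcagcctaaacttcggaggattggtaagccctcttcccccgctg

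A match was present in 4 of these 5 promoters, against 3.92% of 33469 promoters of the same length. It began 69 bases before the start in Irf7, 44 bases before it in Ifit3 and 147 bases before it in Rsad2. Oas1a held 2 overlapping matches, which began 41 and 35 bases before the start, and these letters were not in the Mx1 window. The match of Rsad2 had the same letters as that of Irf7. A match describes the sequence alone and is no measure of factor binding.

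The 9 genes did not share one size or direction of difference between STZ and sham skin. Isg15 and Ifit3 were about 20.1-fold and 27.8-fold higher in STZ skin. Mx1, Usp18, Ifit2 and Oas1a were 3.32-fold to 1.75-fold higher, Irf7 and Mx2 differed by 1.31-fold and 1.26-fold, and Rsad2 was 3.20-fold lower. No single gene passed an adjusted p of 0.05, and neither did any of the 21526 probes tested (limma with Benjamini-Hochberg adjustment, 0% of probes called, smallest adjusted p = 0.0757). At an unadjusted p under 0.05, 4 of the 9 genes were higher (Isg15, Ifit3, Mx1 and Usp18) and 0 were lower, against 7.30% of all probes higher and 3.52% lower. Both STZ arrays lay above both sham arrays for 7 of the 9 genes, against 26.8% of all probes, and below both for 1 gene, Rsad2, against 17.9%. The median change of the 9 genes was 1.14 on the log2 scale, where all tested probes have a median of 0 by construction.

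Levels below are log2 intensities over the 75th percentile of the same array, so that 0 means a signal equal to that percentile. Changes are mean STZ minus mean sham levels on the log2 scale, less 0.23, the median change of all tested probes, and their errors are standard errors (SE). The p-values test the change before that shift is taken off. Of all probes, 95% had a change between -1.90 and 2.63. In bulk skin, fewer cells of a type and less RNA per cell cannot be told apart.

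**Figure D1:**
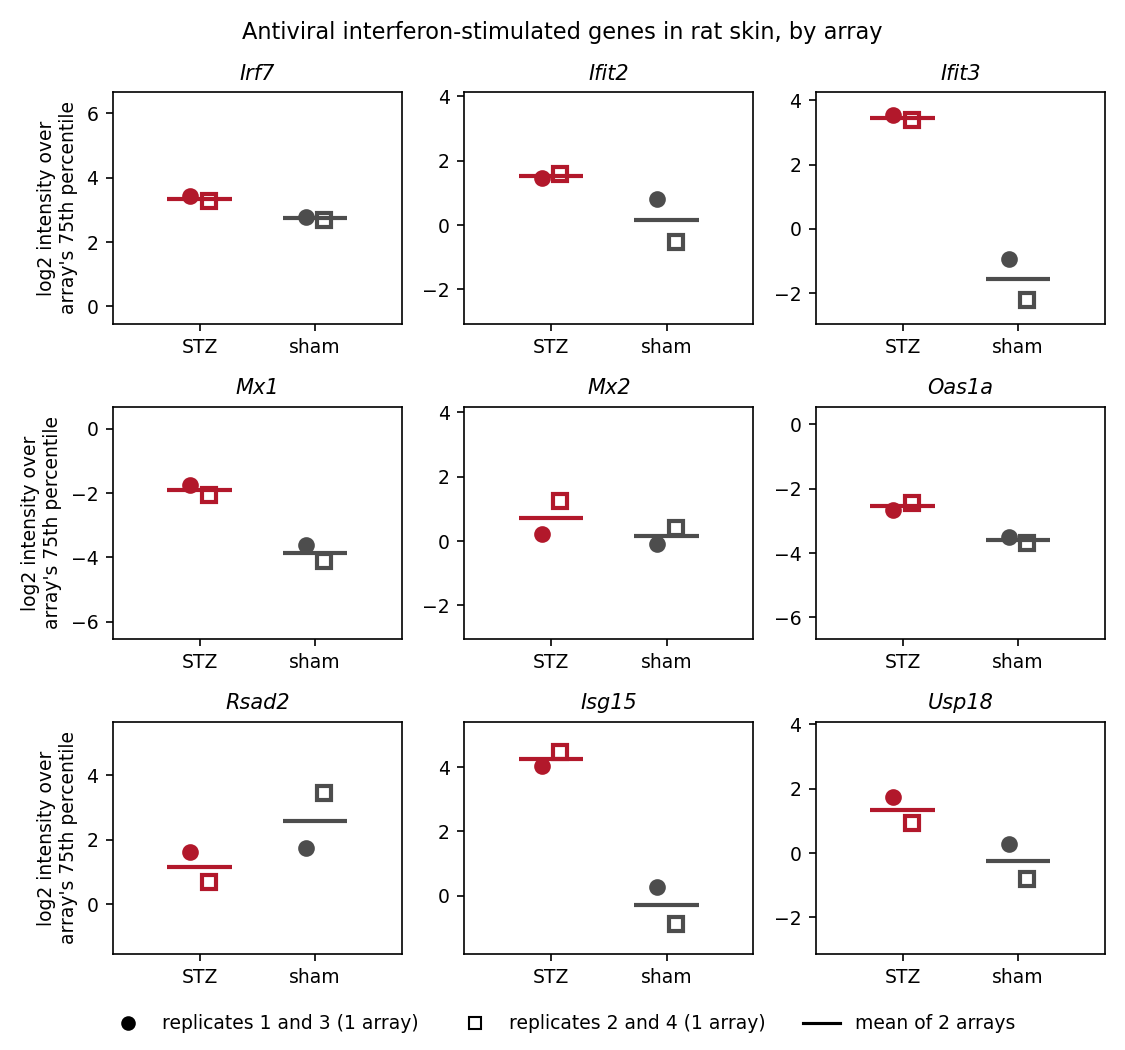
Level of each gene (log2 intensity over the 75th percentile of the array) on the 2 STZ and the 2 sham arrays, one panel per gene, with points for arrays, bars for group means and the same span on every vertical axis. Isg15 and Ifit3 have the widest gaps, Rsad2 alone has both STZ arrays below both sham arrays, and the Mx2 groups overlap.

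Isg15 codes for a ubiquitin-like protein that is attached to other proteins during the interferon response and is also secreted. Its level was 4.04 and 4.48 on STZ arrays 1 and 2, against 0.28 and -0.87 on sham arrays 1 and 2. Both STZ arrays lay far above both sham arrays, and the STZ arrays were the closer pair. The mean was 4.26 ± 0.31 in STZ skin and -0.30 ± 0.81 in sham skin (SD, n = 2 arrays each). The change was 4.33 ± 0.57, more than in 99.6% of probes, with an adjusted p of 0.106 (limma, unadjusted p = 0.000478). Usp18 codes for the protease that removes Isg15 from its targets and also damps the signal of the type I interferon receptor. Its level was 1.75 and 0.93 on the STZ arrays, against 0.29 and -0.81 on the sham arrays. The groups did not overlap, though STZ array 2 and sham array 1 were closer to each other than the arrays of either group. The change of Usp18 was 1.37 ± 0.60, with a 95% interval from -0.16 to 2.91 and an adjusted p of 0.444 (limma, unadjusted p = 0.0436 for the change before the shift). The unadjusted p was under 0.05 in 13 of 19 alternative settings, and it was 0.131 without STZ array 1 and 0.249 without sham array 2, where the changes were 0.81 and 0.80. In unscaled intensity STZ array 2 read 1153 and 1195, below the 1387 and 1433 of sham array 1.

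Ifit2 and Ifit3 code for proteins with tetratricopeptide repeats that act against viral RNA and its translation, and the GRCr8 annotation has them as next neighbours on chromosome 1. Ifit3 had a level of 3.53 and 3.38 on the STZ arrays, against -0.92 and -2.22 on the sham arrays. Its means were 3.45 ± 0.10 in STZ skin and -1.57 ± 0.91 in sham skin (SD, n = 2 arrays each). In processed intensity, before any scaling, the STZ files read 6360 to 17400 and the sham files 283 to 624, so the groups were also apart on the scanner's own scale. The change of 4.80 ± 0.58 was more than in 99.8% of probes, with an adjusted p of 0.102 (limma, unadjusted p = 0.000344). Ifit2 had a level of 1.45 and 1.60 on the STZ arrays, against 0.83 and -0.52 on the sham arrays. The 2 STZ arrays were close to each other and the sham arrays were apart. In unscaled intensity STZ array 2 read 1821 and 1904, below the 2032 and 2071 of sham array 1. The change of Ifit2 was 1.14 ± 0.60, with an adjusted p of 0.507 (limma, unadjusted p = 0.0694), and 0.44 without sham array 2.

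Mx1 and Mx2 code for dynamin-like GTPases that trap viral components, and in the annotation Fam3b lies between them. Mx1 had a level of -1.74 and -2.07 on the STZ arrays, against -3.61 and -4.11 on the sham arrays. Arrays of a group were close and the groups were well apart. The change of Mx1 was 1.73 ± 0.45, with an adjusted p of 0.231 (limma, unadjusted p = 0.00756). Mx2 had a level of 0.21 and 1.23 on the STZ arrays, against -0.10 and 0.42 on the sham arrays. These groups overlapped, because STZ array 1 lay between the sham arrays. The change of Mx2 was 0.33 ± 0.55 (limma, unadjusted p = 0.356), with a 95% interval from -1.08 to 1.74, and it was 0.02 without STZ array 2.

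Oas1a codes for an enzyme that, on binding double-stranded RNA, makes the small molecule that activates ribonuclease L. Its level was -2.66 and -2.44 on the STZ arrays, against -3.50 and -3.68 on the sham arrays. Both groups were narrow and did not overlap on this scale. The change of Oas1a was 0.81 ± 0.42, with an adjusted p of 0.480 (limma, unadjusted p = 0.0576). In unscaled intensity the files of STZ array 2 read 107 and 119 and the sham files 100 to 106, so the gap on that array rests largely on its lower 75th percentile. Rats carry several near-identical Oas1 genes, with Oas1d and Oas1h next to Oas1a, and what each probe binds among them was not tested.

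Irf7 codes for the transcription factor that amplifies type I interferon production and is itself an interferon target. Its level was 3.44 and 3.27 on the STZ arrays, against 2.79 and 2.69 on the sham arrays. The groups did not overlap on this scale and each was narrow. In unscaled intensity STZ array 2 read 5871 and 5991, below the 7904 to 8636 of the sham files, while STZ array 1 read above them, so the lack of overlap rests on the lower 75th percentile of STZ array 2. The change of Irf7 was 0.39 ± 0.42, with a 95% interval from -0.69 to 1.46 and an adjusted p of 0.625 (limma, unadjusted p = 0.202). A change this size was larger than that of 65.8% of probes.

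Rsad2 codes for viperin, an enzyme that makes a nucleotide analogue which stops viral RNA synthesis. Its level was 1.62 and 0.67 on the STZ arrays, against 1.75 and 3.45 on the sham arrays. The groups did not overlap, but STZ array 1 and sham array 1 nearly met. The mean was 1.15 ± 0.67 in STZ skin and 2.60 ± 1.20 in sham skin (SD, n = 2 arrays each). The change was -1.68 ± 0.74, with a 95% interval from -3.58 to 0.23 and an adjusted p of 0.564 (limma, unadjusted p = 0.107). Without sham array 2 the change was -0.85, and without sham array 1 it was -2.50. In unscaled intensity STZ array 1 read 4576 and 4571, above the 3929 and 3829 of sham array 1, so the order of these arrays depends on the scaling. Cmpk2, the neighbour of Rsad2 and a mitochondrial nucleotide kinase (chosen here after its values were seen), had a level of -0.55 and -0.78 on the STZ arrays, against -1.60 and -0.29 on the sham arrays. The Cmpk2 groups overlapped, with a change of 0.05 ± 0.59.

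A ratio of 2 genes on 1 array is free of the scaling between arrays. For Ifit3 over Rsad2 the log2 ratio was 1.91 and 2.71 on the STZ arrays, against -2.67 and -5.66 on the sham arrays. For Mx2, whose own groups overlapped, the ratio to Rsad2 was -1.41 and 0.56 on the STZ arrays, against -1.84 and -3.03 on the sham arrays. The STZ arrays lay above the sham arrays in both ratios. For the 7 genes with both STZ arrays above both sham arrays this order follows from the levels already given, since Rsad2 has the opposite order, so the ratios are no further observation.

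For 6 of the 9 genes the sham arrays lay further apart than the STZ arrays. Sham array 1 was above sham array 2 for 7 of the 9 genes, all but Mx2 and Rsad2, with a median absolute difference of 1.09 against 0.44 over all probes. On the STZ arrays the median absolute difference was 0.33, against 0.73 over all probes. Leaving out 1 array at a time kept the sign of every one of the 9 changes. Where both STZ arrays lay above both sham arrays, or below them, leaving out an array could not reverse the difference before the shift. Without sham array 2, the count of genes higher at an unadjusted p under 0.05 was 2, Isg15 and Ifit3, in place of 4, while 677 of all probes were higher in that fit, in place of 1572. The changes of Isg15 ranged from 3.73 to 4.93 and those of Ifit3 from 4.13 to 5.47 in these fits, while Usp18 ranged from 0.80 to 1.98 and Irf7 from 0.15 to 0.67.

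**Figure D2:**
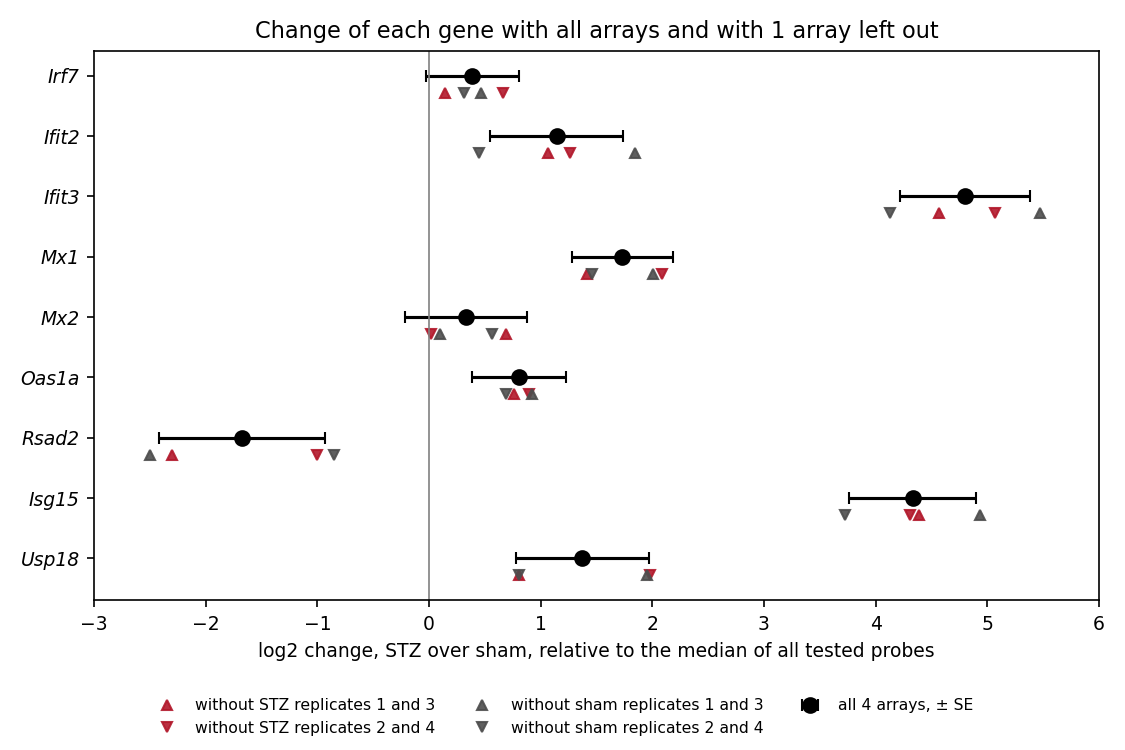
Log2 change of each gene, STZ over sham, relative to the median probe, from all 4 arrays (circle, bar ± SE) and with 1 array left out (triangles). Isg15 and Ifit3 stay at or above 3.73, Mx2 comes down to 0.02, and Rsad2 lies between -2.50 and -0.85.

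The order of changes was Ifit3, Isg15, Mx1, Usp18, Ifit2, Oas1a, Irf7, Mx2 and Rsad2. Ifit3 and Isg15 differed by less than 1 SE of either, and so did the neighbouring pairs from Mx1 down to Oas1a and the pair of Irf7 and Mx2. The gap between Oas1a and Irf7 was about as wide as their SE. The gaps between Isg15 and Mx1 and between Mx2 and Rsad2 were wider than the SE of either gene. The genes outside the 9 whose profile over the 4 arrays was nearest to the mean of the 9, among 12606 genes, were Fam20c, Hlx, Clstn3, Tmem106a and Slc2a5. Their centred levels lay 0.05 to 0.09 from that mean (root mean square of log2 differences), with changes of 1.35 to 1.55. Changes of about this size follow from picking the nearest profiles, so they are no further observation. Among the 9 themselves Mx1 was nearest, at 0.16, while Isg15, Ifit3 and Rsad2 were 1.47, 1.70 and 1.76 away.

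Of 5 interferon genes on the array, which code for the ligands of the pathway, Ifnk, Ifna5 and Ifna4 were well above background in every file. Ifng, which codes for interferon gamma, was well above background in 4 of 4 STZ files and in 0 of 4 sham files. Its level was -5.96 and -4.22 on the STZ arrays, against at most -7.45 and -7.52 on the sham arrays, where the second value is the lowest signal well above background on that array. It was at least 4.48-fold higher in STZ skin relative to the median probe, and it passed the filter on dim probes only through the STZ files, so no test is read from it. Ifnk, an interferon of keratinocytes, had a change of 1.50 ± 0.68, and the type I interferon genes Ifna5 and Ifna4 had changes of 1.80 ± 0.82 and 0.86 ± 0.93. The Ifna4 groups overlapped, and 0 of these 3 reached an unadjusted p under 0.05 in limma. For all 3, STZ array 1 lay closer to both sham arrays than to STZ array 2. Ifna5 had a level of -5.08 and -2.88 on the STZ arrays, against -5.80 and -6.21 on the sham arrays. Ifna4 had -6.45 and -3.86, against -6.47 and -6.01. The lowest signal well above background was -6.41 on STZ array 2 and -7.63 on STZ array 1. Whether the low 75th percentile of STZ array 2 lifted these levels was not tested. Ifnb1, the interferon beta gene, was well above background in 1 of 4 STZ files and 0 of 4 sham files and was not tested. Of the receptor genes, 4 were tested and 0 of them reached an unadjusted p under 0.05, with a median change of 0.89. Ifngr1 and Ifngr2, the chains of the interferon gamma receptor, had changes of 1.03 ± 0.50 and 1.18 ± 0.67. Ifnar1, a chain of the type I receptor, had 0.30 ± 0.54, and Il10rb, a chain shared by type III interferon and interleukin 10 receptors, had 0.75 ± 0.48.

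Of 10 genes for signal transducers and transcription factors, 9 had a positive change, with a median change of 0.49. At an unadjusted p under 0.05, 3 were higher and 0 were lower, against 7.30% and 3.52% of all probes. Irf8, a factor of myeloid cells, had the smallest p of them, with a level of -2.30 and -2.25 on the STZ arrays, against -4.65 and -4.51 on the sham arrays. Its change was 2.08 ± 0.42, with an adjusted p of 0.172 (limma). Jak2, a kinase of the interferon gamma receptor, had a change of 1.33 ± 0.56, and Irf1, a factor induced by interferon gamma, had 1.18 ± 0.47. Irf9 and Stat2, which act in the type I pathway and were named here after their values were seen, had changes of 0.54 ± 0.48 and 0.02 ± 0.44, and the Stat2 groups overlapped.

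Of 9 nucleic acid sensors and adaptors, 7 had a positive change, with a median change of 0.73. At an unadjusted p under 0.05, 3 were higher and 0 were lower, against 7.30% and 3.52% of all probes. Tlr7, an endosomal receptor for single-stranded RNA, had a level of -0.19 and -0.63 on the STZ arrays, against -2.63 and -3.81 on the sham arrays, and a change of 2.58 ± 0.57. Dhx58 and Ifih1, cytoplasmic RNA helicases and themselves interferon targets, had changes of 1.70 ± 0.45 and 1.21 ± 0.55. Both are also counted among the other antiviral genes below. Of 11 feedback inhibitors, 6 had a positive and 5 a negative change, with a median of 0.06. The gene Usp18 described above was the 1 higher at an unadjusted p under 0.05, against 7.30% of all probes. Socs3, an inhibitor of Janus kinases, had a change of 1.33 ± 0.78. The phosphatases Ptpn6 and Ptpn11 had changes of 0.78 ± 0.57 and -1.47 ± 0.80, with overlapping groups for Ptpn11. Of the ISG15 machinery beyond Isg15 and Usp18, the conjugating enzyme Ube2l6 had a change of 0.42 ± 0.45 and the ligase Trim25 had -0.05 ± 0.46.

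The other antiviral interferon-stimulated genes were listed 66 in number, and 48 were on the array and tested. Of these, 45 had a positive change, with a median of 0.98. An unadjusted p under 0.05 was reached by 21 higher genes and 1 lower gene, against 7.30% and 3.52% of all probes, while 0 of the 48 passed the adjusted threshold (limma). Both STZ arrays lay above both sham arrays for 40 of the 48, against 26.8% of all probes. The 45 and the 40 include Oas2, named here after its values were seen. It was well above background in 4 of 4 STZ files and 2 of 4 sham files, and so passed the filter on dim probes through the STZ files. The other 47 genes were above background in every file. Slfn4, of the schlafen family, had a level of 5.36 and 4.41 on the STZ arrays, against 0.87 and -0.31 on the sham arrays. Its change of 4.38 ± 0.63 was close in size to that of Isg15. Oasl, a relative of Oas1a, had a change of 2.72 ± 0.54, Ifitm1, a membrane protein that blocks virus entry, had 2.56 ± 0.60, and Epsti1 had 2.38 ± 0.56. The gene that was lower at that threshold was Lgals9, which codes for galectin-9 and was named here after its values were seen. Its level was 1.38 and 1.74 on the STZ arrays, against 2.45 and 3.84 on the sham arrays, with a change of -1.81 ± 0.61. Like Rsad2, Lgals9 was highest on sham array 2. Of 46 other antiviral genes with a promoter in the RefSeq table, 29 (63.0%) held the response element core. The 22 tested genes with a match had a median change of 0.87, and the 13 tested genes without one had 0.61, but Slfn4 and Oasl, with the largest changes, were among those without one.

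All 16 interferon gamma response genes had a positive change, with a median of 1.25, and 9 were higher at an unadjusted p under 0.05, against 7.30% of all probes. All but Nos2, which is counted among the higher genes, were above background in every file. Some of the 16, such as Irf1 and Gbp5, are counted in other lists too. Cxcl11 and Cxcl10, chemokines that attract T cells, had changes of 4.43 ± 0.53 and 3.64 ± 0.51, with adjusted p-values of 0.102 and 0.120 (limma). Cxcl10 had a level of 1.49 and 0.83 on the STZ arrays, against -2.38 and -3.04 on the sham arrays. Nos2, the inducible nitric oxide synthase, had a level of 0.12 and -1.97 on the STZ arrays, against -6.07 on sham array 1 and a signal not well above background on sham array 2, so no fold is given for it. Gbp5, a GTPase of the guanylate-binding family, had a change of 1.69 ± 0.45. Over all lists, with each gene counted once, 84 of 95 tested pathway genes outside the 9 had a positive change, with a median of 0.86. An unadjusted p under 0.05 was reached by 32 higher genes and 1 lower gene, against 7.30% and 3.52% of all probes. Oas2 is among the 84 genes with a positive change. The 32 include Ifng and Nos2, which passed the filter on dim probes through the STZ files (4 of 4, against 0 and 2 of 4 sham files). Without sham array 2 the count of higher genes was 10, and that of all probes was 677 in place of 1572.

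**Figure D3:**
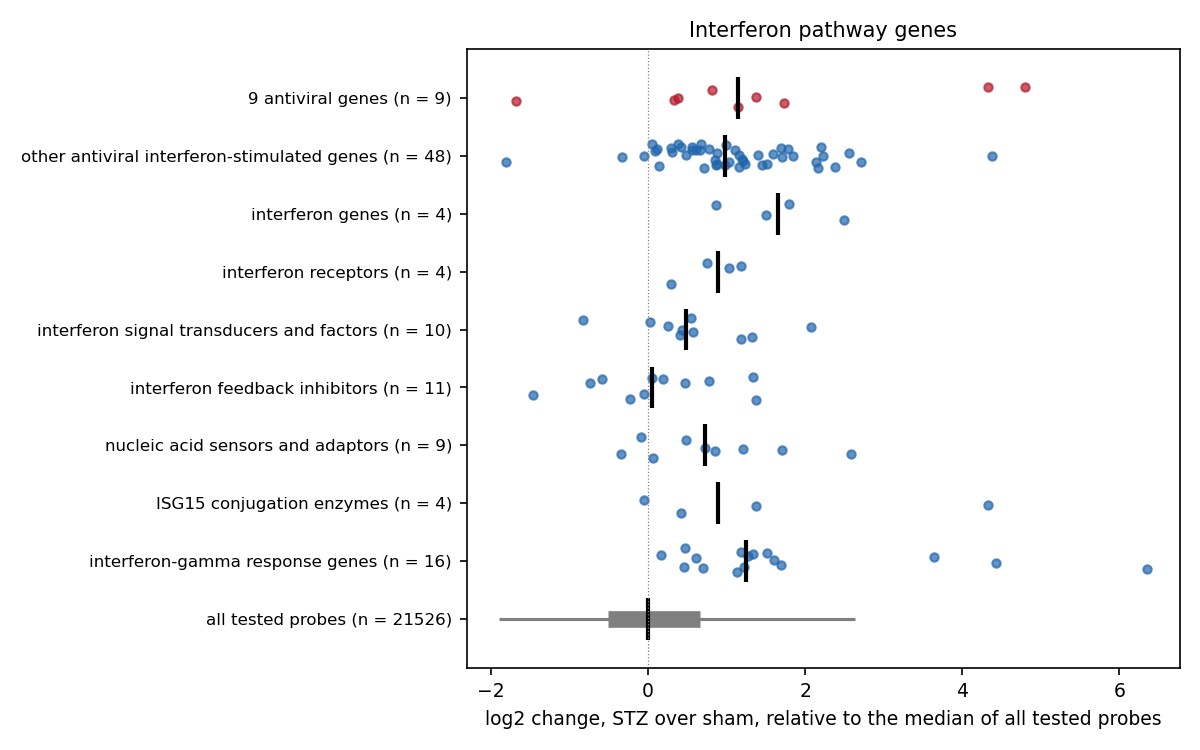
Log2 change (STZ over sham, relative to the median probe) of every tested gene of the 9 antiviral genes and of each pathway list, with a point per gene and a bar at the median. The grey box and line give the middle 50% and 95% of all tested probes, and Isg15 and Usp18 appear again among the ISG15 enzymes and Usp18 among the inhibitors. Other genes that stand in several lists, such as Ifih1, Dhx58, Ube2l6, Trim25, Gbp5 and Irf1, also appear in each of their rows. The medians run from 0.06 for feedback inhibitors to 1.65 for the 4 tested interferon genes (Ifng included). All 4 had a higher level on STZ array 2 than on STZ array 1. Rsad2 and Lgals9 are the lowest points of their rows.

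Markers of several cell types differed between the same arrays. All 15 tested macrophage and dendritic cell markers had a positive change, and their summed intensity, in multiples of the array's 75th percentile, was 384 and 554 on the STZ arrays, against 130 and 69.9 on the sham arrays. Of 9 tested neutrophil markers, Mmp9, S100a8, Camp, Csf3r and Cxcr2 were above background in every file and all had a positive change, while Fpr1, Ngp, Ltf and Mmp8 entered the test through the STZ files. The sums over the 9 were 70.7 and 74.2 on the STZ arrays, against 1.66 and 1.43 on the sham arrays. The 17 T and NK cell markers above background in every file, which leaves out Cd5 and Ncr1, all had a positive change, and the 19 tested had sums of 12.7 and 23.4 on the STZ arrays, against 2.83 and 2.15 on the sham arrays. Plasmacytoid dendritic cells are the main producers of type I interferon. Of 8 genes listed as their markers, 6 had a positive change, with a median change of 2.08. At an unadjusted p under 0.05, 5 were higher, against 7.30% of all probes. Spib, Tlr7, Irf8 and Clec4b2 had changes of 3.07, 2.58, 2.08 and 2.08. Tlr7 and Irf8 are also counted in the pathway lists above, and whether the 8 genes mark only this cell type in skin was not tested. The 8 markers had sums of 27.7 and 31.4 on the STZ arrays, against 26.3 and 29.1 on the sham arrays. Most of each sum came from Tcf4 and Cox6a2, the 2 with a negative change. The macrophage marker Marco was above background in no file. The 9 genes themselves summed to 49.6 and 51.6 on the STZ arrays, against 16.1 and 20.8 on the sham arrays. All 14 hair shaft and inner root sheath markers were lower, with sums of 110 and 6.54 on the STZ arrays, against 926 and 1023 on the sham arrays. All 8 erythroid markers were lower, with sums of 65.1 and 64.7 on the STZ arrays, against 297 and 357 on the sham arrays. All 10 adipocyte markers had a negative change, and 9 had both STZ arrays below both sham arrays, against 17.9% of all probes. Their sums were 76.7 and 131 on the STZ arrays, against 286 and 304 on the sham arrays. Of 9 mast cell markers, 8 had a negative change and 0 reached an unadjusted p under 0.05 in limma, with sums of 12.8 and 17.5 on the STZ arrays, against 31.9 and 16.9 on the sham arrays. The part of these cell type differences in the interferon-stimulated genes was not tested.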

How the data were processed

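Cy3-labelled RNA amplified from total skin RNA was read on Agilent arrays of 1 colour, per the labels' protocols. The deposited intensity of a spot is Agilent's processed signal, with background subtracted and no scaling between arrays, and the file headers name Feature Extraction 11.0.1.1 (11.0.0.1 in the submitters' processing notes). The deposited flags for spots above background or outlying are 0 or 1, per the file headers. Spot deviations correlated at 0.967 to 0.992 between rescans and at 0.511 to 0.546 between other samples of a group, so 8 files became 4 arrays. Each log2 intensity had the file's 75th percentile over 42136 noncontrol spots subtracted, and spots of a probe were averaged without outlier spots. The filter on dim probes asked for a signal well above background in 4 or more of 8 files, and 21526 of 24684 probes passed.

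The difference between STZ and sham arrays was tested in limma 3.58.1 (R 4.3.3; lmFit, eBayes, two-sided), and p-values were adjusted by Benjamini-Hochberg over the 21526 probes. The fit had 2 residual and 3.01 prior degrees of freedom, and the number of arrays limits the precision. An exact permutation test of 2 arrays against 2 cannot go below a p of 0.333. The fit was tested on simulated data. Where a gene had several probes, the brightest was used. A probe above background in no sham file has only a bound there, and its fold is given as "at least", against the higher of its own signal and the array's lowest signal well above background.

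Names came from a RefSeq table of the assembly GRCr8. The headers name the build rn4, so no probe coordinates are printed. The members and lists were chosen with earlier results of these data known. Named genes are the 9 members, up to 4 tested genes of each list by unadjusted p, all genes of the interferon, receptor and ISG15 enzyme lists, the 5 nearest profiles, and those said to be chosen after their values were seen. Krt14, Krt1, Dcn, Col3a1, Marco, Cxcr2, Fpr1, Ngp, Ltf, Mmp8, Cd5, Ncr1, Tcf4 and Cox6a2 were named as marker checks after their values were seen. Replicate numbers did not pair the arrays (correlation of same-numbered deviations -0.20). The mean spot signal was absent from the files, so the normexp alternative used the deposited median intensity and median local background.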

Additional observations from a re-analysis of the deposited data

How the results depend on the processing

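All 9 changes kept their sign under each of 19 alternatives, and 8 of 9 genes were higher in each. The changes were identical by construction with separate files, array weights, a replicate block, a crossed block or centring. They were also identical with the percentile taken over probes above background in all files. In these settings the sign could not differ. Taking the 8 files as separate samples, which counts rescans as replicates, gave 7 of the 9 genes higher and Rsad2 lower at an unadjusted p under 0.05, with 7 past the adjusted threshold, 70 other pathway genes higher at an unadjusted p under 0.05, and 5315 probes higher, 3319 lower and 5236 past the adjusted threshold. Centring each array on its median probe was chosen after seeing the data. It took 2 of the 9 genes (Isg15 and Ifit3) and 125 probes past the adjusted threshold. At an unadjusted p under 0.05, however, centring gave 3 of the 9 genes and 22 other pathway genes higher, in place of 4 and 32. The count of all probes higher was then 1483, in place of 1572. Normexp with the 75th percentile took 2 of the 9 genes (the same genes) and 212 probes past the adjusted threshold. Lower probes at an unadjusted p under 0.05 were 1344 with normexp and quantile normalization and 1149 with quantile normalization, against 757. With 1 array left out, the median change of the 9 genes ran from 0.69 to 1.85, the genes higher at an unadjusted p under 0.05 from 2 to 5, and the other pathway genes from 10 to 33. In those fits 677 to 5378 probes were higher, 305 to 1094 lower, and 0 to 49 past the adjusted threshold. A lone array was assumed to vary like the other group. With the replicate number as a block, the median change was 1.14, and 0 passed the adjusted threshold. At an unadjusted p under 0.05, 4 of the 9 genes, 26 other pathway genes and 1568 of all probes were higher. Crossing the block, chosen after seeing the data, gave 3, 30 and 2083. A slide block could not be fitted, because there was 1 slide. Mx1 had a change of 1.17 and Oas1a 0.46 with normexp and quantile normalization, against 1.73 and 0.81. Irf7 ranged from 0.16 (normexp and 75th percentile) to 0.76 (quantile normalization) and Mx2 from 0.19 (no filter) to 0.69 (normexp and quantile normalization) with all arrays in. Rsad2 was lower at an unadjusted p under 0.05 in 4 of the 19 alternatives. Apart from what each alternative counts as a sample, the cause of these shifts was not tested. Signal over background limits Mx1 and Oas1a, with processed intensities of 74.5 to 448 for Mx1 and 100 to 236 for Oas1a, and the bound given for Ifng.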
